A study of Mus musculus with 17 samples.

Results

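Bile acid synthesis in the liver was followed through 4 cytochrome P450 enzymes, Cyp8b1, Cyp7a1, Cyp7b1 and Cyp27a1, which are 4 of the 284 mouse gene probes on the array. They were chosen by name, as the enzyme that sets the 12α-hydroxyl group of bile acids and the enzymes at the entry to the classic and the alternative pathway. Each is measured by 1 probe printed as 3 spots. The liver RNA came from 10 males of an inbred Lean line and 10 males of an inbred Fat line, at 14 weeks of age, on maintenance chow and after a 4 h fast. Both lines descend from 1 base population of CBA, JU and CFLP background and were selected over more than 60 generations for low or for high body fat percentage, so each is a polygenic line without an engineered allele. As 2 inbred lines they differ at many loci at once, and a difference between them cannot be assigned to body fat or to any 1 locus.

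On each of 17 two-colour arrays (Steroltalk v2, a cDNA array of selected metabolic genes) the RNA of 1 Lean mouse was hybridised with that of 1 Fat mouse. The arrays make up 10 pairs of mice, 7 of them measured in both dye orientations and pairs 4, 9 and 10 in only 1. Pair numbers are names and carry no order. Values are log2 ratios, Lean over Fat, so that a positive ratio is a higher level in the Lean mouse. Per array, 34.9% to 78.8% of the 855 gene spots lay above background in both channels, meaning more than 2 standard deviations of the local background above it. By the slide numbers of the scanner files the slides belong to 2 series, named A (pairs 1, 2, 3, 5 and 9) and B (pairs 4, 6, 7, 8 and 10). In bulk liver RNA, fewer cells of a type and less RNA per cell cannot be told apart. The 8 hepatocyte markers were above background in both channels on 17 of 17 arrays, and their mean level ranged from 12.3 to 12.9 (log2) in Lean and from 12.01 to 12.8 in Fat mice. Of the 3 adipocyte markers, Lep and Retn were above background on 3 to 5 arrays and Adipoq on 12 arrays in Lean and 11 in Fat mice. None of these markers passed the test between the lines with all spots in use.

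One array stood apart, the array of pair 2 with the Lean RNA in Cy3. On it, 143 of 1440 spots had a local background more than 5 times the median background of the array, against at most 12 spots on any other array, and 46 of its spots were saturated. This bright area covered 1 spot of Cyp7a1 and 2 spots of Cyp27a1. The covered Cyp7a1 spot read 65535 in the Fat channel, the top of the scanner's range, over a background nearly as bright, 191 times the array's median, and gave a ratio of 5.01, where the other 2 spots of that probe gave 0.010 and 0.012. For Cyp27a1 the covered spots gave 4.49 and -1.08 and the uncovered one 0.023. The pair 2 ratios of these enzymes are therefore given with and without the bright spots, a filter chosen after the data had been seen. Cyp8b1 and Cyp7b1 had no spot in the bright area.

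Bile acids are made from cholesterol in hepatocytes by 2 routes. The classic route starts with Cyp7a1, the rate-limiting cholesterol 7α-hydroxylase, and the alternative route with Cyp27a1, the mitochondrial sterol side-chain hydroxylase, followed by the oxysterol 7α-hydroxylase Cyp7b1. Cyp8b1, the sterol 12α-hydroxylase, acts downstream and directs intermediates to cholic acid rather than to chenodeoxycholic acid and, in mice, the muricholic acids derived from it. Bile acids repress their own synthesis through the nuclear receptor FXR (Nr1h4) and its target SHP (Nr0b2), while HNF4α and LRH-1 (Nr5a2) activate Cyp8b1 and Cyp7a1. In mouse assembly GRCm38.p6 the gene Cyp8b1 lies on chr9:121914356-121916305, Cyp7a1 on chr4:6265612-6275632, Cyp7b1 on chr3:18071944-18243890 and Cyp27a1 on chr1:74713148-74737897, so that the 4 enzymes are on 4 chromosomes.

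The start region of Cyp8b1 is shown because it is the only 1 of the 4 enzymes whose ratio passed the test. The reference promoter (RefSeq, GRCm38.p6, chr9:121916256-121916555, minus strand, 250 bases before the start of transcription and 50 from it on) reads as follows, with matches to the letters searched in capitals.
Cyp8b1: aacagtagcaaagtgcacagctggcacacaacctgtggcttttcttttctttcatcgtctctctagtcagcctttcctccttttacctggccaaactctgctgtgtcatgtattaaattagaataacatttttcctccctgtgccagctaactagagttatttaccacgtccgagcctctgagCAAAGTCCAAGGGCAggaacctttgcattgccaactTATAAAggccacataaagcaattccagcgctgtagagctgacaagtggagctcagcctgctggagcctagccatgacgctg
The letters searched, on both strands, were CAAAGTCCA for HNF4α, CAAGGNCA for LRH-1 and TATAAA for the TATA box, and they were picked with this promoter in view. The HNF4α letters span 67 to 59 bases before the start and the LRH-1 letters, which overlap them, 60 to 53 bases before it, while TATAAA spans 31 to 26 bases before it. Of 32851 promoter windows of the same length, 0.475% held CAAAGTCCA, 6.71% held CAAGGNCA and 13.6% held TATAAA. The HNF4α and LRH-1 letters overlapped in 1 window, that of Cyp8b1. The window of Cyp27a1 (chr1:74713285-74713584, plus strand) held none of the 3, and Cyp7a1 and Cyp7b1 are named only. That window of Cyp27a1 lies inside the gene as placed above, so the bases upstream of the gene were not searched. Matching letters are a description of the reference sequence. The sequence in the Lean and Fat lines was not analysed here.

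Cyp8b1 was higher in Lean than in Fat liver in all 10 pairs. Its pair ratios ran from 0.15 (pair 1) through a median of 0.51 to 1.06 (pair 9). Pairs 1 and 6 were lowest, at 0.15 and 0.16, and pairs 8 and 9 highest, at 0.80 and 1.06. This order repeated little between arrays. In the 7 pairs measured in both dye orientations the correlation r between the 2 arrays was 0.16, and pair 9 had only 1 array. A difference in Cyp8b1 ratio between pairs thus cannot be told from one between arrays. The mean ratio was 0.52 with a standard error (SE) of 0.08 (n = 10 pairs), or 1.44-fold higher in Lean, with a 95% t interval of 0.32 to 0.73. It passed the test across all probes (limma, Benjamini-Hochberg adjusted p = 0.00208), and the exact two-sided sign-flip test over pairs gave p = 0.00195, the smallest that 10 pairs allow. Over the whole array 2.82% of probes were called higher and 0.704% lower in Lean, and 2.11% had a ratio above 0 in all 10 pairs. Over all 284 probes 69.4% of mean ratios were above 0, with a median of 0.041. All 8 hepatocyte markers had a mean ratio above 0, with a median of 0.14, as had 6 of 8 (all but Alb1 and C3) with a LOWESS on all gene spots and all but C3 without the bright spots, and their part in the ratio of Cyp8b1 was not tested. The marker nearest the threshold was Hpxn, at 0.28 (limma adjusted p = 0.0625), and it passed without the bright spots (0.28, adjusted p = 0.0462). With the median of each array set to 0 in place of the spike-in fit, the mean of Cyp8b1 was 0.67 and just missed the threshold (limma adjusted p = 0.0531).

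**Figure D1:**
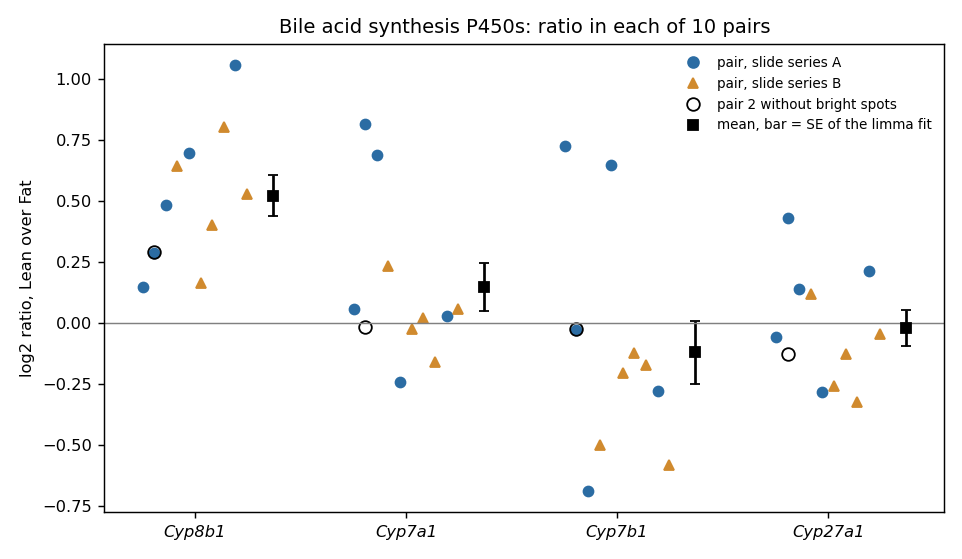
Log2 ratio, Lean over Fat, of each of the 4 enzymes in each of 10 pairs, with circles for slide series A, triangles for series B, open rings for pair 2 after the bright spots were left out, and black squares with bars for the mean and SE of the limma fit. All 10 Cyp8b1 ratios lie above 0, from 0.15 to 1.06, whereas those of the other enzymes lie on both sides of it.

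The level of Cyp8b1 in single mice overlapped between the lines. In Lean mice the normalized log2 level ran from 9.96 through a median of 10.5 to 11.3, and in Fat mice from 9.54 through 10.2 to 10.4. The Lean mouse was the higher in every pair. By slide series the mean ratio was 0.54 ± 0.36 (SD, n = 5) in A and 0.51 ± 0.24 (n = 5) in B, with all 5 pairs above 0 in either. Each series alone missed the threshold in limma (adjusted p = 0.0858 and 0.0644). All 3 spots were above background in both channels on 17 of 17 arrays, and the median SD between the 3 spots was 0.034. In the deposited value table of the authors the mean over pairs was 0.56, again above 0 in 10 of 10 pairs.

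**Figure D2:**
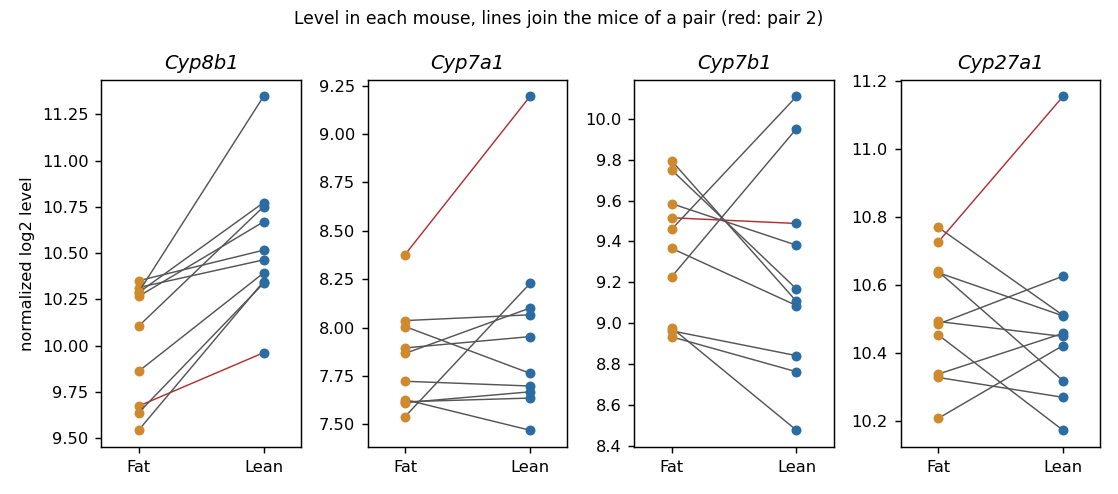
Normalized log2 level of each enzyme in each mouse, Fat on the left and Lean on the right of each panel, with lines joining the 2 mice of a pair and pair 2 in red. Levels are not comparable between panels. Every Cyp8b1 line rises from Fat to Lean, and in the Cyp7a1 and Cyp27a1 panels the Lean mouse of pair 2, at 9.19 and 11.2, lies above the other Lean mice.

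Cyp7a1, the entry enzyme of the classic pathway, did not pass the test. Its pair ratios ran from -0.24 (pair 5) through a median of 0.043 to 0.82 (pair 2), with 7 pairs above 0 and 3 below. The 2 highest pairs stood away from the rest, pair 2 at 0.82 and pair 3 at 0.69, and the next was pair 4 at 0.23. The mean was 0.15 (SE 0.10, 95% t interval -0.10 to 0.39, limma adjusted p = 0.546, exact sign-flip p = 0.262, n = 10). Without the bright spots pair 2 fell from 0.82 to -0.017 and the mean to 0.064 (SE 0.07, interval -0.12 to 0.25, limma adjusted p = 0.723). In pair 3 the arrays differed by dye, 0.13 with Lean in Cy3 and 1.24 with Lean in Cy5, and on the latter 1 of the 3 spots was above background in the Fat channel.

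Of the 4 enzymes, Cyp7a1 was above background on the fewest arrays. It was above background on 10 of 17 arrays in the Lean and on 11 in the Fat channel. In slide series A these were 9 and 8 of 9 arrays, and in series B 1 and 3 of 8. The value table of the authors holds Cyp7a1 on 11 arrays, and the 6 without a value are all of series B. The mean ratio was 0.025 ± 0.14 (SD, n = 5) in series B and 0.27 ± 0.46 in series A, and the difference between the series did not pass (limma adjusted p = 0.871). The offset of 50 in the background correction draws the ratio of dim signals towards 0. With plain background subtraction, which has no offset and here kept the bright spots, the mean over all pairs was 0.35 and did not pass (limma adjusted p = 0.451). Without background subtraction the mean was 0.11, but there the local background stays in both channels, added to the signal as an offset is. With dim spots left out it was 0.13 (6 pairs), and in the value table of the authors 0.11 (7 pairs). None of these passed.

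Cyp27a1, which opens the alternative pathway, lay close to 0. Its pair ratios ran from -0.32 (pair 8) through a median of -0.051 to 0.43 (pair 2), with 4 pairs above 0 and 6 below. The mean was -0.019 (SE 0.07, 95% t interval -0.19 to 0.16, limma adjusted p = 0.899, exact sign-flip p = 0.807, n = 10). Without the bright spots pair 2 moved from 0.43 to -0.13 and pair 9 from 0.21 to 0.056, and the mean to -0.090 (SE 0.06, interval -0.21 to 0.03, adjusted p = 0.507), with 7 of 10 pairs below 0. The probe was above background on 17 arrays in the Lean and 16 in the Fat channel.

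Cyp7b1, the second step of the alternative pathway, spread the most between pairs. Its ratios ran from -0.69 (pair 3) through a median of -0.19 to 0.73 (pair 1). Pairs 1 and 5, at 0.73 and 0.65, were the only ones above 0, and the other 8 lay between -0.69 and -0.028. The mean was -0.12 (SE 0.13, 95% t interval -0.46 to 0.22, limma adjusted p = 0.711, exact sign-flip p = 0.424, n = 10). The SD over pairs, 0.48, was the 18th largest of the 284 probes, against 0.29 for Cyp8b1 and 0.34 for Cyp7a1.

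The high and low Cyp7b1 pairs stayed high and low when the dyes were swapped. Pair 1 gave 0.95 and 0.50 on its 2 arrays, pair 5 gave 0.73 and 0.57, and pair 3 gave -0.60 and -0.78. In single mice the level ran from 8.48 to 10.1 in Lean and from 8.93 to 9.79 in Fat mice, with an SD of 0.51 in the Lean and 0.32 in the Fat line, and the highest 2 Lean mice were those of pairs 5 and 1. The SDs were not tested against each other. By series the mean was 0.076 ± 0.61 in A and -0.32 ± 0.21 in B (SD, n = 5 each), where all 5 pairs were below 0, and the difference between the series did not pass (limma adjusted p = 0.871).

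Within pairs, Cyp8b1 was set against each of the other enzymes, as a difference of 2 log2 ratios from the same arrays. In 7 of 10 pairs Cyp8b1 had the highest ratio of the 4 enzymes, and without the bright spots in 8 of 10. Against Cyp27a1 the difference ran from -0.14 (pair 2) to 1.13 (pair 8), was above 0 in 9 of 10 pairs and had a mean of 0.54 (SE 0.12, 95% t interval 0.27 to 0.81, exact sign-flip p = 0.0039, adjusted over 3 differences 0.0117). Against Cyp7b1 it ran from -0.58 (pair 1) to 1.34 (pair 9), was above 0 in 9 of 10 pairs and had a mean of 0.64 (SE 0.19, interval 0.20 to 1.08, exact p = 0.0176, adjusted 0.0264). Both differences passed the test. The differences were chosen with the ratios of these data known, and each contains the ratio of Cyp8b1 tested above.

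Against Cyp7a1 the call changed with the processing. With all spots the difference ran from -0.53 (pair 2) to 1.03 (pair 9), was above 0 in 8 of 10 pairs and had a mean of 0.37 (SE 0.16, 95% t interval 0.008 to 0.74), and the exact test missed the threshold (p = 0.0547, adjusted 0.0547). Without the bright spots it was above 0 in 9 of 10 pairs with a mean of 0.46 (SE 0.13, interval 0.17 to 0.75, exact p = 0.0078, adjusted 0.0117). Leaving out pair 2 or pair 3, the 2 pairs below 0, gave an adjusted exact p of 0.0234 and 0.0391, and leaving out any of the other 8 gave 0.0625 to 0.109, with means of 0.30 to 0.41. The difference from Cyp27a1 without the bright spots was 0.61 (SE 0.10), above 0 in 10 of 10 pairs, with an adjusted exact p of 0.00586.

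**Figure D3:**
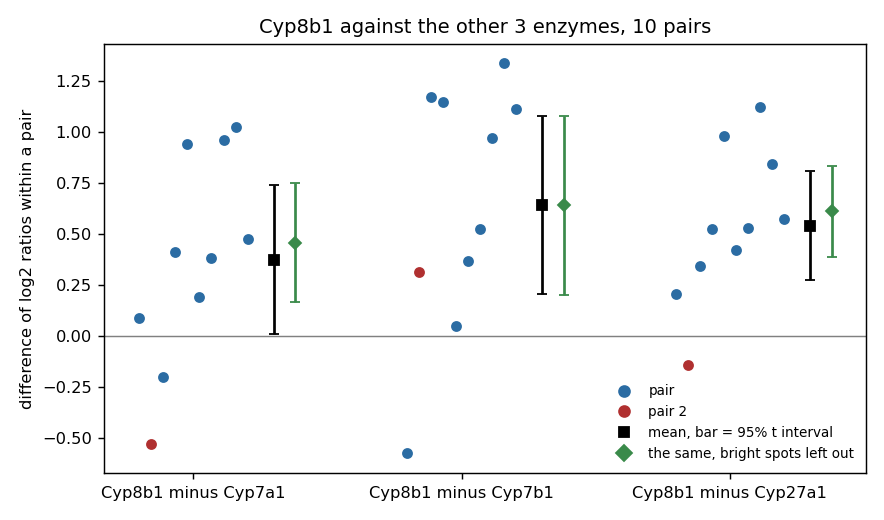
Difference within each pair between the log2 ratio of Cyp8b1 and that of Cyp7a1, Cyp7b1 or Cyp27a1, with circles for pairs (pair 2 in red), squares for the mean over 10 pairs and diamonds for the mean without the bright spots, bars being 95% t intervals. The mean difference from Cyp7a1 moves from 0.37 to 0.46 when the bright spots are left out, that from Cyp7b1 stays at 0.64, and that from Cyp27a1 moves from 0.54 to 0.61.

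None of the 3 differences passed with all spots over the 7 dye-swapped pairs alone. Those from Cyp7b1 and Cyp27a1 were 0.40 (adjusted exact p = 0.211) and 0.50 (adjusted exact p = 0.0938), and that from Cyp7a1 was 0.26 (adjusted exact p = 0.281). Without the bright spots the one from Cyp27a1 passed at 0.58 (adjusted exact p = 0.0469), and that from Cyp7a1 no longer did, at 0.38 (adjusted exact p = 0.0938). The mean of Cyp8b1 itself over those 7 pairs was 0.43 and still passed (limma adjusted p = 0.0486). The difference from Cyp7b1 also missed the threshold when pair 4, 8, 9 or 10 was left out, each time at an adjusted exact p of 0.0527.

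The ratios of Cyp7b1 and Cyp27a1 changed with the dye orientation, and by more than their means over pairs. In the 7 dye-swapped pairs the ratio of Cyp8b1 was 0.57 ± 0.35 (SD) with the Lean RNA in Cy3 and 0.28 ± 0.32 in Cy5, a mean change of -0.29 within pairs (exact sign-flip p = 0.0938, adjusted over 4 enzymes 0.125). For Cyp7b1 the change was -0.33, below 0 in 7 of 7 pairs (exact p = 0.0156, the smallest 7 pairs allow, adjusted 0.0313). For Cyp27a1 it was -0.64 (the same p values), from 0.25 ± 0.43 in Cy3 to -0.39 ± 0.28 in Cy5, and without the bright spots it was -0.48. For Cyp7a1 it was 0.042 (exact p = 0.906), and 0.28 without the bright spots (exact p = 0.219).

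Averaging the 2 arrays cancels such a dye effect in a dye-swapped pair and leaves it in pairs 4, 9 and 10. Over all gene probes the change from Cy3 to Cy5 had a median of 0.20, with 5th and 95th percentiles of -0.55 and 0.52, and the Cy5 channel had the higher median background on 15 of 17 arrays. The dye effects depended on the normalization. With a LOWESS fitted to all gene spots that of Cyp8b1 turned to 0.13, those of Cyp7b1 and Cyp27a1 stayed below 0 at -0.14 and -0.18, and none of the 3 passed. With median centring all 3 lay above 0, at 1.18, 0.64 and 0.92. There those of Cyp8b1 and Cyp7b1 passed (adjusted exact p = 0.0313 and 0.0417), and that of Cyp27a1 did not (0.0625). On single arrays Cyp8b1 was above 0 on 15 of 17, the exceptions being the Cy5 arrays of pair 1 (-0.21) and pair 6 (-0.05).

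**Figure D4:**
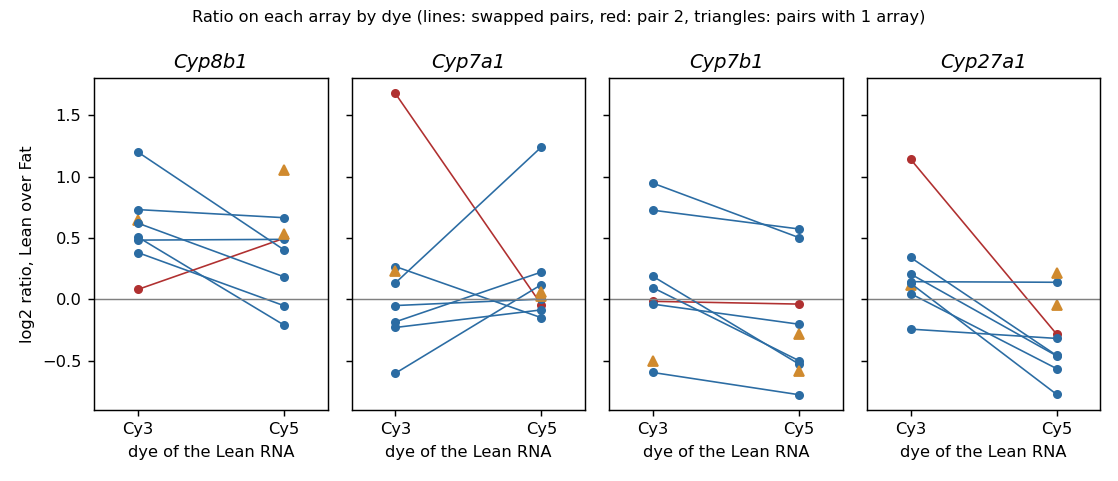
Log2 ratio, Lean over Fat, on each of 17 arrays by the dye that carried the Lean RNA, with lines joining the arrays of the 7 dye-swapped pairs (pair 2 in red) and triangles for the 3 pairs with 1 array. The 2 highest pairs of Cyp7b1 and its lowest pair are the same with either dye, and 7 of 7 Cyp27a1 lines fall from Cy3 to Cy5.

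Across the 10 pairs, 6 relations between the ratios of the enzymes were computed. Cyp7a1 and Cyp27a1 moved together, with a Pearson r of 0.83 (permutation p = 0.00145, adjusted over 6 relations 0.0087) and a Spearman rho of 0.85 (permutation p = 0.00317, adjusted 0.019). Without pairs 2 and 3, the farthest from the median of Cyp7a1, r was 0.76, and without the bright spots r was 0.81 and rho 0.93. Within series A r was 0.80 and within series B 0.97, each over 5 pairs. In series B, Cyp7a1 was above background on 1 of 8 arrays in the Lean and 3 in the Fat channel. Neither ratio repeated between the 2 arrays of the 7 dye-swapped pairs. Between those arrays r was -0.11 for Cyp7a1 and 0.11 for Cyp27a1, with the same sign in 2 of 7 pairs each. Without the bright spots these were 0.19 and -0.11. A change shared by the mice thus cannot be told from one shared by the arrays. The ratios of Cyp7a1 and Cyp27a1 come from the same arrays and the same spike-in fit. The median r over all pairs of gene probes was 0.30, and 94.3% of them had an r lower than 0.83. With a LOWESS on all gene spots the r of Cyp7a1 and Cyp27a1 was 0.55 (adjusted permutation p = 0.592), and with median centring -0.29 (adjusted permutation p = 0.409). The relation thus passed with the spike-in normalization and not with these 2. The other 5 relations, with r from -0.38 to 0.022, did not pass, and Cyp8b1 had an r of -0.31, -0.24 and 0.022 with Cyp7a1, Cyp7b1 and Cyp27a1 (adjusted permutation p = 0.585, 0.593 and 0.952).

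As a description without a test, the gene whose ratio followed that of Cyp7b1 most closely over the 10 pairs was Abcb11, the export pump of bile acids at the canalicular membrane (r = 0.84, and 0.84 without the bright spots). For Cyp8b1, whose ratios repeated little between dye-swapped arrays, it was Egr-1, an immediate early transcription factor (r = 0.73, and 0.73 without the bright spots). Egr-1 was above background on 10 arrays in Lean and 8 in Fat mice. The next for Cyp8b1 were Cav1 (r = 0.66), a coat protein of caveolae, and Slc2a4 (r = 0.61), the insulin-responsive glucose transporter. Without the bright spots these fell to -0.25 and 0.11 and Cyp27b1 and Nr4a3 took their places (0.59 and 0.57). Cyp27b1 and Nr4a3 were each above background on 0 arrays in either channel. For Cyp7a1 the nearest was Nr1c3, the fat cell receptor PPARγ (r = 0.88, and 0.75 without the bright spots), which was above background on 5 arrays in Lean and 6 in Fat mice. For Cyp27a1 it was Scarb1, the HDL receptor (r = 0.89, and 0.71 without the bright spots). Without the bright spots both had Slco1b2, a hepatocyte uptake carrier of organic anions, as the nearest (0.82 for Cyp7a1 and 0.88 for Cyp27a1).

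Of the 8 enzymes of bile acid and oxysterol synthesis on the array, 1, Cyp8b1, was called higher, none lower and 7 did not pass. The median of their mean ratios was -0.00088, against 0.041 over all 284 probes, of which 3.52% were called in either direction. Outside the 4 enzymes above, the ratio was 0.042 (SE 0.09) for Ch25h, cholesterol 25-hydroxylase, -0.022 (SE 0.05) for Cyp39a1, an oxysterol 7α-hydroxylase, 0.017 (SE 0.06) for Cyp46a1, the cholesterol side-chain hydroxylase known from brain, and -0.021 (SE 0.06) for Cyp27b1, the vitamin D 1α-hydroxylase known from kidney. The limma adjusted p of these 4 ran from 0.811 to 0.877. Cyp27b1 was above background on 0 of 17 arrays in either channel, and the others on 8 to 12.

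Regulators of these enzymes were measured by 14 probes for 13 genes, with a median ratio of 0.011. None was called in either direction, where 3.52% of all probes were (limma, adjusted p from 0.239). The probe of Nr5a2 was the only 1 of the 14 at an unadjusted p under 0.05 (limma unadjusted p = 0.0248). The largest were the liver X receptor Nr1h2, at 0.15 (SE 0.09, adjusted p = 0.541), and Rora, at 0.14 (SE 0.09, adjusted p = 0.541), and both were smaller without the bright spots, at 0.063 and 0.059. The factors whose letters were found at Cyp8b1, named here after their values were seen, were at 0.008 (SE 0.11, adjusted p = 0.964) for Hnf4a and at 0.13 (SE 0.05, adjusted p = 0.239, above 0 in 8 of 10 pairs) for Nr5a2. Without the bright spots Hnf4a was at -0.071 (limma adjusted p = 0.731) and Nr5a2 at 0.15 (limma adjusted p = 0.0746). The bile acid receptor Nr1h4 was at -0.14 (SE 0.10, adjusted p = 0.577) and its target Nr0b2, which was above background on 7 arrays in Lean and 10 in Fat mice, at 0.013 (SE 0.06, adjusted p = 0.907), named likewise. These are transcript levels, and receptor activity was not measured.

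Of the 4 bile acid carriers listed, with 5 probes, 1 was called higher, Abcb11, at 0.57 (SE 0.09, 10 of 10 pairs above 0, limma adjusted p = 0.00187). None of the listed carriers was called lower, against 2.82% higher and 0.704% lower of all probes, and the median of the 5 probes was -0.020. Abcb11 and Cyp8b1 were thus both higher in 10 of 10 pairs. The 2 probes of Slc10a1, the sodium-dependent uptake carrier NTCP, gave -0.083 (SE 0.09) and -0.12 (SE 0.09), and neither passed. The list leaves out the Slco uptake carriers on the array. Of these, Slco1a4, named here after its value was seen, was called lower in Lean, at -0.56 (SE 0.12, 10 of 10 pairs below 0, limma adjusted p = 0.0132). It was above background on 12 arrays in Lean and 17 in Fat mice. The other Slco probes did not pass with all spots in use. Slc10a2 and Fabp6, which mark ileal enterocytes, were above background on 3 arrays and 1 array in Lean and on 4 arrays and 1 array in Fat mice.

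**Figure D5:**
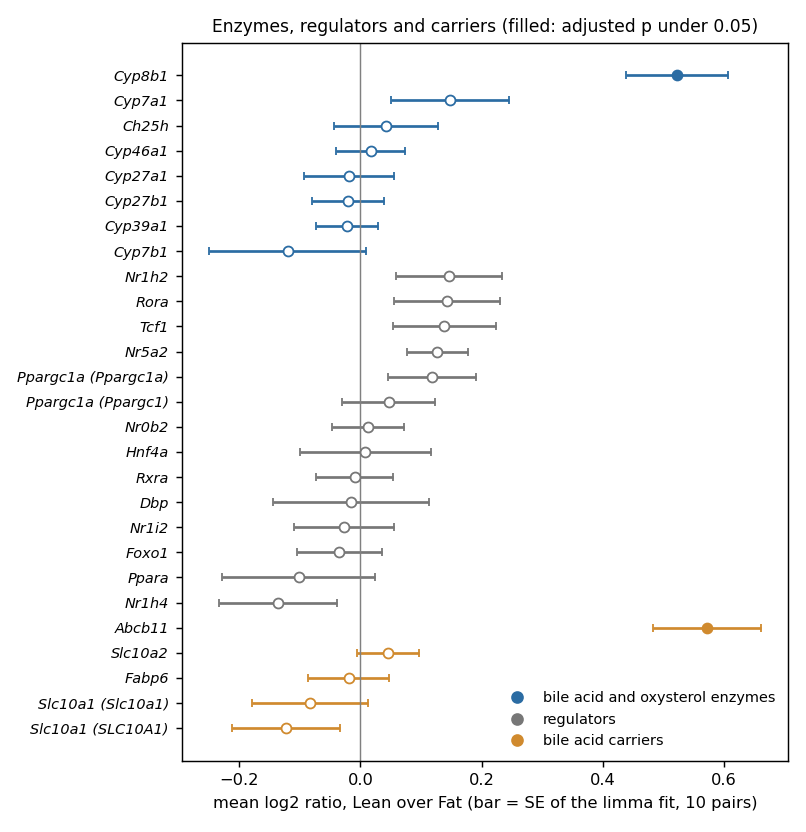
Mean log2 ratio, Lean over Fat, with the SE of the limma fit over 10 pairs, of 8 enzymes of bile acid and oxysterol synthesis (blue), 13 regulators (grey, 14 probes) and 4 bile acid carriers (orange, 5 probes), filled where the adjusted p is under 0.05. Cyp8b1 at 0.52 and Abcb11 at 0.57 are the only filled points.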

How the data were processed

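The authors quantified the images with Array-Pro Analyzer 4.5. The deposited scanner files give, spot by spot and before normalization, the foreground and background intensity in either channel. The authors' value table gives log2 ratios after a spot quality filter, whose criterion is not given in the sources used here, and LOWESS on spike-in controls (OWNormalize in Orange). It served as an alternative. Ratios are Lean over Fat by the channel labels, without sign changes by dye. The array values carry no genome build, and gene positions and promoters are those of RefSeq on GRCm38.p6.

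The mean foreground was corrected for the mean background by normexp (offset 50). Arrays were then normalized in limma 3.58.1 (R 4.3.3) by a LOWESS of span 0.3 on 13 luciferase and calibration spike-ins. Replicate spots of a probe (usually 3) were averaged, and dye-swap arrays, as technical repeats, were averaged to give 10 pair ratios. Mean ratios were tested against 0 by limma over 284 probes, with Benjamini-Hochberg adjustment at 0.05, beside an exact two-sided sign-flip test over 1024 patterns. Differences and dye effects were tested by sign-flip, and correlations with 100000 permutations. SE is that of the limma fit for a ratio and SD over the root of n for a difference, and t intervals are a description. Levels per mouse came from Aquantile scaling. The number of arrays limits the precision. The steps were tested on simulated data in which genes and spike-ins shared the same dye curve. That simulation cannot tell whether the spike-in fit suits the genes of these arrays.

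The members, the differences between them and the gene lists were chosen with earlier results of these data known. The mean background was preferred to the median after both counts had been seen, and the bright-spot filter was added after seeing the data. The rule for named genes took the 4 enzymes, the synthesis list, regulators and carriers that passed or else the 2 largest ratios, and the nearest patterns. Alternatives changed the background, normalization, spots, dye term, pairs, weights, test and source of values.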

Additional observations from a re-analysis of the deposited data

Results flagged for a closer look

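Among 19 groups of values tested for a single sample far from the others, 2 had one, where chance gives about 1 in 20. Both were the Lean mouse of pair 2, whose normalized log2 level was 9.19 for Cyp7a1 (the other 9 Lean mice reached 8.23) and 11.2 for Cyp27a1 (the others reached 10.6). Both levels include the spots of the bright area on the Cy3 array of that pair. Without those spots the pair 2 ratio moved from 0.82 to -0.017 for Cyp7a1 and from 0.43 to -0.13 for Cyp27a1.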

How the results depend on the processing

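Cyp8b1 stayed above 0 under all 22 alternatives (0.43 to 0.67) and whichever pair was left out (0.46 to 0.56), and missed the limma threshold in 3 of them, at 0.67 with median centring and at 0.54 and 0.51 with slide series A or B alone, which halve the pairs. Cyp7a1 never passed (0.35 with plain background subtraction, 0.025 to 0.27 otherwise). Neither did Cyp7b1, which turned to 0.085 with median centring, 0.023 and 0.024 in the 7 dye-swapped pairs with and without the bright spots, 0.076 in series A and 0.018 with array weights, nor Cyp27a1, which turned to 0.0038 with plain background subtraction, 0.11 with median centring, 0.087 with the ratio controls in the LOWESS, 0.089 in series A, and -0.069 to 0.015 as single pairs were left out. The difference of Cyp8b1 from Cyp7a1 passed at 0.44 without background subtraction, 0.47 with the ratio controls, 0.41 with span 0.75, 0.45 with the median of spots and 0.46 without the bright spots (0.30 to 0.48 leaving out pairs). It did not pass at 0.25 with plain subtraction, 0.26 in the dye-swapped pairs (0.38 also without the bright spots), 0.27 and 0.48 in series A and B, 0.61 with median centring, 0.38 with LOWESS on gene spots, 0.52 with the value table, 0.43 without dim spots, and 0.36 and 0.38 with the median background or foreground (adjusted exact p 0.0508 to 0.438). That from Cyp7b1 was lost at 0.40 in the dye-swapped pairs (0.40 also without the bright spots) and at 0.46 and 0.83 in series A and B, where 5 pairs cannot give an exact p under 0.0625 (0.57 to 0.78 leaving out pairs). That from Cyp27a1 was lost at 0.50 in the dye-swapped pairs with all spots and at 0.45 and 0.64 in series A and B. It passed at 0.58 in the dye-swapped pairs without the bright spots (adjusted exact p = 0.0469), and it was not lost when a pair was left out (0.48 to 0.62).

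The dye effects, by alternatives added after seeing the data, were 0.13 (Cyp8b1), -0.14 (Cyp7b1) and -0.18 (Cyp27a1) with LOWESS on gene spots and 1.18, 0.64 and 0.92 with median centring, and the relation of Cyp7a1 to Cyp27a1 was 0.55 and -0.29. With median centring the dye effects of Cyp8b1 and Cyp7b1 passed (adjusted exact p = 0.0313 and 0.0417). The cause of these changes was not tested.

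Against 8 probes higher and 2 lower, the median background gave 6 and 2 (Cyp8b1 at 0.55), and the higher count was 3 with plain subtraction, with median centring and in the dye-swapped pairs, 4 in those pairs without the bright spots, 2 in series A, 1 in series B and 15 with array weights. The lower count was 7 without background subtraction, 1 in either series, and 4 with the value table, without dim spots, with the median of spots, with a dye coefficient and the pair as random block, and without the bright spots. The methods' t-test called 22 higher and 13 lower unadjusted (5 and 1 adjusted) over the pairs, and 23 and 14 unadjusted (5 lower adjusted) over 17 arrays of the value table. Leaving out single pairs gave 5 to 9 higher and 2 to 3 lower. No separate paired analysis was possible because every ratio is already taken within a pair.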
